A study of Mus musculus with 29 samples.

Results

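The genes described here encode the nuclear subunits of the respiratory chain and of ATP synthase, together with their tissue-specific isoforms and 3 genes that share the naming (Cox7a2l, Atp5s and Atp5sl). They were taken from a deposited mouse expression table by symbol, as every gene whose name begins with Nduf followed by one of the letters a, b, c, s or v and a number, with Uqcr, with Cox and a number of 4 to 8 or with Atp5, plus Sdha, Sdhb, Sdhc and Sdhd. Symbols that end in Rik or hold -ps were left out. This gave 84 genes of 23918 usable symbols, of which 37 are named for complex I, 4 for complex II, 8 for complex III, 18 for complex IV and 17 for complex V. Subunits encoded by mitochondrial DNA were not analysed here, and 0 of the usable symbols name one.

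The samples were nephron progenitor cells (NPCs), the Six2-expressing cells of the embryonic kidney that form nephrons, grown as lines or taken directly from the kidney. Each group carried the Six2-GCE allele, in which Six2 control drives GFP joined to inducible Cre, on a hybrid of C57BL/6 and 129. Lines started from kidneys of E11.5, of E13.5, of E16.5 or of P1 were grown as aggregates in a medium called NPSR and sampled at passage 80 (P80) and passage 20 (P20), 1 library per line and passage. Medium withdrawal gave 9 libraries, 1 per condition, from cultures labelled E13.5: BMP7 or the GSK3 inhibitor CHIR left out for 4 or 8 days, LIF for 8 days, and heparin or the ROCK inhibitor Y27632 for 4 or 8 days. Freshly isolated cells comprised Six2-negative cells of E12.5 kidneys (2 libraries) and primary NPCs, with 2 libraries each at E11.5, at E12.5, at E13.5, at E16.5 and at P1. Each line is a single derivation per age, and the labels do not say whether libraries of a group came from separate animals or cultures, so p-values describe library-to-library spread, part of which may be technical.

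The respiratory chain sits in the inner mitochondrial membrane. Complex I takes electrons from NADH and complex II takes them from succinate, complex III passes them from ubiquinol to cytochrome c, complex IV hands them to oxygen, and complex V (ATP synthase) uses the proton gradient built by complexes I, III and IV to make ATP. Several subunits of complex IV exist as a ubiquitous form and a second form used in muscle, lung or testis or under low oxygen, and Ndufa4l2 is a low-oxygen relative of Ndufa4, a protein first assigned to complex I and later to complex IV. Nephron progenitors are known for relying on glycolysis, and kidney tubules that arise from them for dense mitochondria.

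Levels are given in RPKM, read numbers scaled to transcript length and to the mapped reads of a library, which correct for transcript length and library size only. The estimated depth ran from 6.6 to 32.7 M reads. In 18 of the 29 libraries the values of the last lines of the table were displaced, and these 18 and the other 11 are called the displaced and the undisplaced set. All P80 and withdrawal libraries were in the displaced set and all P20 libraries in the undisplaced set, and each primary age with lines had 1 library in each, so passage and set cannot be told apart. The Six2 label held: Six2 was at 7.35 and 3.45 RPKM in Six2-negative cells, against 236 and 225 RPKM in E12.5 NPCs, and at 233.2 to 328.6 RPKM in the 8 line libraries. Primary P1 library 1 and E16.5 library 1 stood apart in 2 other ways: the 16 tubule markers summed to 6353 and 765 RPKM there, against 513 and 171 RPKM in library 2 of the same ages, and Six2 was lower, at 117 and 160 RPKM, against 201 and 273 RPKM.

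Most respiratory chain genes were abundant, and most stayed within 3-fold from the lowest to the highest of the 29 libraries. The median level exceeded 100 RPKM for 64 of the 84 (76.2%), against 3.97% of all symbols, and the median of the 84 medians was 203 RPKM. In 76 genes every library had at least 1 RPKM, and among these the highest library exceeded the lowest by a median of 2.22-fold. This ratio was not taken over all genes. The ratio passed 3-fold in 11 of the 76 and reached 71.2 for Cox4i2, 16.03 for Cox7a1 and 8.27 for Cox6b2. Ndufa4l2, which fell below 1 RPKM in 6 libraries, spanned 0.200 to 158 RPKM.

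Levels differed widely within complexes I, IV and V and little within complex II. In complex I the highest median was that of the accessory subunit Ndufa3 at 751 RPKM and the lowest that of Ndufa4l2 at 16.03 RPKM. The 4 genes of complex II were close together, with medians of 99.1 RPKM for Sdha, 201.9 RPKM for Sdhb, 187 RPKM for Sdhc and 188 RPKM for Sdhd. In complex III the hinge protein Uqcrh was highest at 938 RPKM and Uqcrb lowest at 114 RPKM. In complex IV Cox4i1 was highest at 1276 RPKM, while the testis forms Cox7b2 and Cox8c were listed at 0 in 28 of 29 libraries and the muscle form Cox6a2 in 17. In complex V Atp5k, subunit e of ATP synthase, was highest at 1377 RPKM.

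Several ubiquitous subunits were listed at or near 0. Atp5g2 was listed at 0 in 13 libraries with a highest value of 0.376 RPKM, Atp5l at 0 in 10 libraries with a highest value of 0.768 RPKM, and Cox7c had a median of 0.969 RPKM. Atp5g1 stayed between 2.94 and 10.2 RPKM, while Atp5g3, which codes for the same mature subunit c of the rotor, had a median of 881 RPKM. Genes of this kind have near-identical copies elsewhere in the genome, how reads that match several places were counted is not given in the sources used here, and their levels are uncertain. The filter of at least 1 RPKM in at least 2 libraries was passed by 79 of the 84 in the fit of lines and primary cells, where Atp5g2, Atp5l, Cox7b2, Cox8b and Cox8c dropped out, and by 78 in the fit of primary and Six2-negative cells, where Cox6a2 dropped out too.

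**Figure D1:**
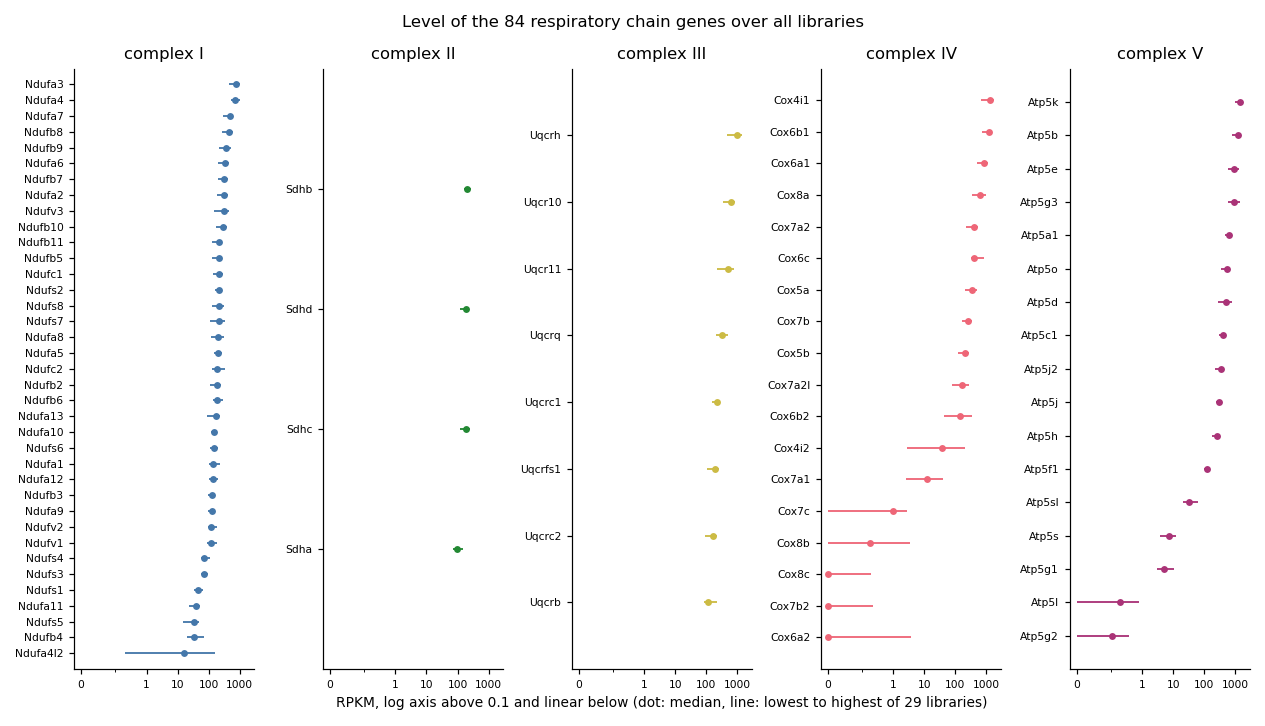
Level of each of the 84 genes by complex, as RPKM on an axis that is logarithmic above 0.1 and linear below. The dot is the median and the line runs from the lowest to the highest of 29 libraries; most lines are short and lie above 100 RPKM, while Ndufa4l2, Cox4i2, Cox7a1 and Cox6b2 span wide ranges.

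The lines were compared with primary NPCs of the ages they came from, to see what long culture does to the progenitor programme. The largest changes among respiratory chain genes were in isoforms. Cox4i2, the lung and low-oxygen form of subunit 4 of cytochrome c oxidase (mm9 chr2:152579909-152590773, plus strand), Ndufa4l2 (mm9 chr10:126951995-126954208, plus strand), known as a low-oxygen gene whose product lowers complex I activity, and Cox6b2, the testis form of subunit 6b (mm9 chr7:4703396-4704696, minus strand), rose at both passages. The ubiquitous partners Cox4i1 and Cox6b1 did not pass the test at either passage, and Ndufa4 fell at P80.

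Cox4i2 had 145, 98.9, 106 and 95.1 RPKM in the lines of E11.5, of E13.5, of E16.5 and of P1 at P80 and 175, 123, 154 and 90.3 RPKM in the same lines at P20. In the 10 primary libraries it ran from 2.84 to 9.52 RPKM with a median of 4.10 RPKM. Every line library was above every primary library. The log2 fold change of RPKM + 1 was 4.14 ± 0.27 (SE, adjusted p = 3.52e-07, limma) at P80 and 4.399 ± 0.27 (adjusted p = 2.07e-07) at P20, against the same 8 primary libraries. Both calls held against only the primary libraries of the same set. Cox4i1 had 1073 to 1380.4 RPKM at P80, 1042 to 1708 RPKM at P20 and 844 to 1511 RPKM in primary cells, with log2 changes of -0.20 ± 0.10 (adjusted p = 0.134) and 0.01 ± 0.10 (adjusted p = 0.960). Of the RPKM of Cox4i2 and Cox4i1 together, Cox4i2 made up 7.10 to 11.1% at P80, 5.83 to 14.35% at P20 and 0.230 to 0.657% in primary cells.

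Ndufa4l2 had 107, 105, 33.5 and 66.3 RPKM in the lines of E11.5, of E13.5, of E16.5 and of P1 at P80, and 82.1, 25.1, 45.8 and 14.7 RPKM at P20. Primary cells ran from 0.200 to 16.03 RPKM with a median of 0.480 RPKM. All P80 libraries were above all primary libraries, while the P1 line at P20 lay within the primary range, next to P1 cells at 16.03 and 13.0 RPKM. Log2 changes were 4.36 ± 0.76 (adjusted p = 0.000723) at P80 and 3.34 ± 0.76 (adjusted p = 0.00446) at P20. The P20 call was lost against primary libraries of the same set (3.08, adjusted p = 0.114). Of the RPKM of Ndufa4l2 and Ndufa4 together, Ndufa4l2 made up 3.86 to 15.4% at P80 and 1.80 to 10.95% at P20, against 0.0264 to 1.77% in primary cells.

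The Ndufa4l2 gene overlaps Shmt2 on the opposite strand, and whether counting used strand is not given in the sources used here. Shmt2, which codes for mitochondrial serine hydroxymethyltransferase, had 113.1 to 201.4 RPKM in lines at P80, 134.7 to 202.5 RPKM at P20 and 42.8 to 91.5 RPKM in primary cells, so it moved in the same direction over a narrower range. In withdrawal, Shmt2 stood at 68.4 RPKM without BMP7 at day 4 and 54.6 RPKM without CHIR at day 8. Ndufa4l2 was at 1.41 and 2.63 RPKM there. Without heparin or Y27632 Shmt2 had 124.7 to 168.5 RPKM. Without LIF it was at 105.1 RPKM, where Ndufa4l2 was at 158 RPKM. The part of the overlap in the level of Ndufa4l2 was not tested. Cox4i2 and Ndufa4l2 are also known from pericytes. Of the 9 stromal markers looked at, 8 passed the filter and 0 were higher in lines, with 2 lower at P80 and 3 lower at P20, and their sum was 49.9 to 88.3 RPKM at P80, 38.65 to 72.5 RPKM at P20 and 76.9 to 433 RPKM in primary cells. The pericyte receptor Pdgfrb had 1.30 to 15.5 RPKM at P80, 1.33 to 5.35 RPKM at P20 and 1.33 to 14.8 RPKM in primary cells. Its medians were 10.6, 2.72 and 3.25 RPKM. At P80 the lines of E11.5, of E13.5, of E16.5 and of P1 had 15.5, 12.3, 1.30 and 8.98 RPKM. Primary cells had 1.37 and 2.05 RPKM at E11.5, 2.67 and 1.33 RPKM at E13.5, 14.8 and 4.34 RPKM at E16.5 and 14.1 RPKM in both libraries of P1. The part of pericytes was not tested. In bulk RNA a change in the number of cells that use a gene and a change in RNA per cell cannot be told apart.

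Cox6b2 was already well above background in primary cells and rose less. It had 173, 244, 253 and 208 RPKM in the lines of E11.5, of E13.5, of E16.5 and of P1 at P80 and 223, 229, 355 and 255 RPKM at P20, against 42.9 to 144 RPKM (median 69.0) in primary cells. No line library overlapped the primary range. The log2 changes were 1.37 ± 0.21 (adjusted p = 0.000278) at P80 and 1.64 ± 0.21 (adjusted p = 6.93e-05) at P20, and 1.54 and 1.48 against primary libraries of the same set. Cox6b1 had log2 changes of 0.05 ± 0.10 (adjusted p = 0.731) and 0.22 ± 0.10 (adjusted p = 0.110). Cox6b2 made up 12.8 to 18.8% of the RPKM of both genes at P80 and 14.9 to 19.0% at P20, against 4.49 to 13.3% in primary cells.

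The promoters of this pair are shown because the ubiquitous and the testis form behaved differently. They and the 2 further promoters below are from RefSeq (GRCm38.p6, from 250 bases before to 50 after the start of the gene, on the strand of the gene); 69 of the 84 genes had an entry. Both strands were searched for the cores ACGTG of low-oxygen elements, GCATGCGC of NRF1 and CCGGAAG of ETS factors, both of the latter known from nuclear genes of the respiratory chain, and matches are in capitals. A CACGTG holds a match of ACGTG on each strand. Cox6b1 (chr7:30626065-30626364, minus strand) holds the ETS core on the opposite strand, and none of these letters is in the window of Cox6b2 (chr7:4753045-4753344, minus strand).
Cox6b2: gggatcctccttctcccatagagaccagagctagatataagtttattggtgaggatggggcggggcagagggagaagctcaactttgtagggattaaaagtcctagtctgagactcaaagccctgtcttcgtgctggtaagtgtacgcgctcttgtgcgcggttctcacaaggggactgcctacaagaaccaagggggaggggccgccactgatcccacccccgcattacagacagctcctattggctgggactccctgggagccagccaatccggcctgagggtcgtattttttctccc
Cox6b1: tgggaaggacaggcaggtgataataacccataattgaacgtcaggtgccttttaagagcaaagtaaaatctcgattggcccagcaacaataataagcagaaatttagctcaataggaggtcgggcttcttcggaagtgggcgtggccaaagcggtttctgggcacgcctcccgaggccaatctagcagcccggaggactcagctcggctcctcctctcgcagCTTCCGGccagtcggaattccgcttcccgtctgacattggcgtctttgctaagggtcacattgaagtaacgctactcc
Over all 27025 genes with an entry, ACGTG was in 21.8% of windows, GCATGCGC in 3.05% and CCGGAAG in 9.93%. Among the 69 respiratory chain genes they were in 19 (27.5%), 10 (14.5%) and 16 (23.2%). A match is only a run of letters, not a bound site.

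2 muscle forms of complex IV differed between lines. Cox6a2 was listed at 0 in all 10 primary and both Six2-negative libraries, and had 1.14, 0.398, 0.724 and 0.783 RPKM in the lines of E11.5, of E13.5, of E16.5 and of P1 at P80 and 3.72, 2.94, 0.367 and 0.598 RPKM at P20. The levels are low, the gene overlaps Itgad on the opposite strand, and it entered the fit through line libraries alone, so no test is given for it. Cox7a1 had 25.8, 24.5, 3.76 and 12.4 RPKM in the 4 lines at P80 and 26.3, 19.8, 2.56 and 7.53 RPKM at P20, against 2.83 to 26.9 RPKM (median 5.93) in primary cells. The E11.5 and E13.5 lines were the high ones and the E16.5 line the lowest at both passages. Cox7a1 did not pass the test, with log2 changes of 0.72 ± 0.63 (adjusted p = 0.385) at P80 and 0.38 ± 0.63 (adjusted p = 0.659) at P20.

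**Figure D2:**
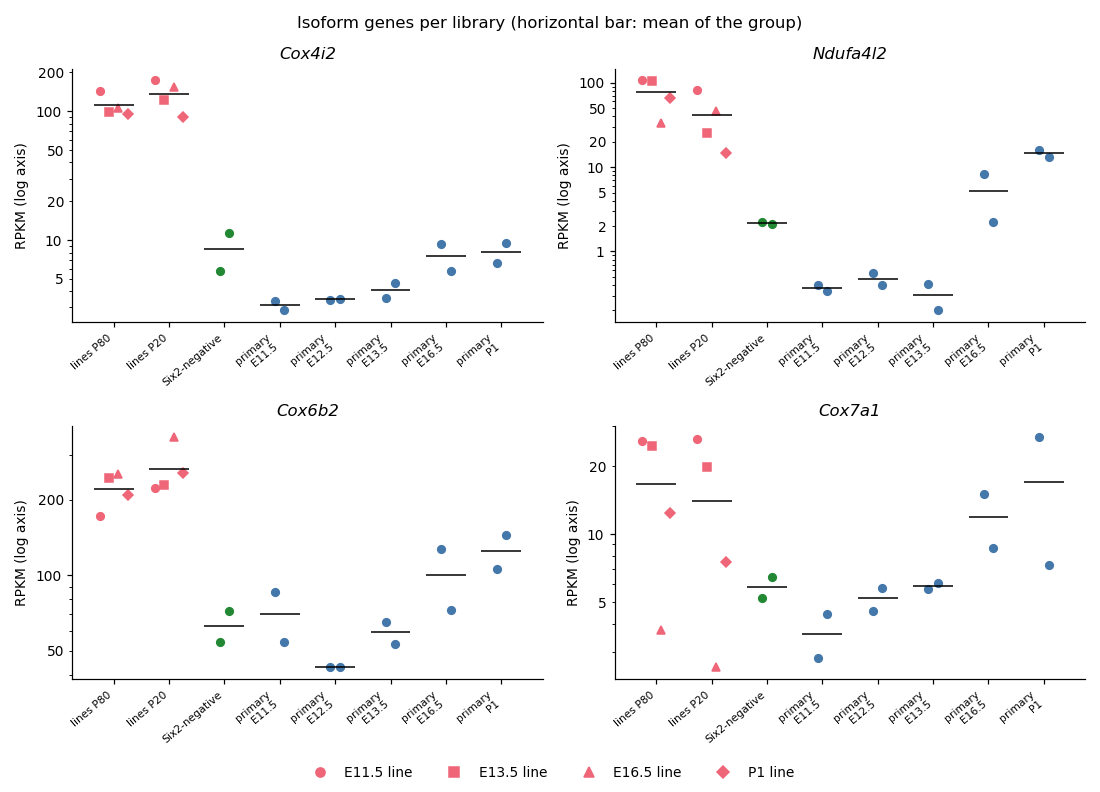
RPKM of Cox4i2, Ndufa4l2, Cox6b2 and Cox7a1 in each line, Six2-negative and primary library on log axes, with the mean of each group as a bar and the age of each line as a symbol. Cox4i2 and Cox6b2 of all 8 line libraries lie above all primary libraries, and Ndufa4l2 and Cox4i2 are higher in primary cells at E16.5 and P1 than at E11.5.

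Beyond the isoforms, changes in lines were small and went both ways. At P80, 8 of the 79 genes tested were higher and 26 lower, where 15.3% and 24% of all genes tested were higher and lower. At P20, 14 were higher and 6 lower, where 14.5% and 21.6% of all genes were. Each higher count holds Cox6a2, which passed the filter on low values through line libraries alone; without it 7 were higher at P80 and 13 at P20. The median log2 change was -0.16 at P80 and -0.02 at P20, beside -0.11 over all genes at each passage. These medians depended on the processing: they were -0.05 and 0.08 after median ratio scaling, -0.17 and -0.07 after quantile scaling and -0.07 and -0.11 with set as a term, and without the E11.5 line the P20 median was 0.05. Counted by libraries that do not overlap, 4 were higher and 10 lower at P80, where 8.76% and 14.3% of all genes were, and 4 were higher and 5 lower at P20, where 8.04% and 12.6% were. Both comparisons share the 8 primary libraries. The split depended on the scaling: after quantile scaling 7 were higher and 28 lower at P80 and 9 higher and 13 lower at P20, and after scaling each library by its median ratio to the mean library 13 were higher and 14 lower at P80 and 20 higher and 4 lower at P20. Over all genes called, the share that was higher was 38.9% at P80 and 40.2% at P20 as deposited, 49.1% and 50.7% after quantile scaling and 50.1% and 51.7% after median ratio scaling. Against primary libraries of the same set, 8 were higher and 10 lower at P80 and 2 higher (Cox4i2 and Cox6b2) and 0 lower at P20. Calls over all genes changed too: 1769 of 12711 were higher and 2493 lower at P80, and 622 of 13238 were higher and 640 lower at P20.

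**Figure D3:**
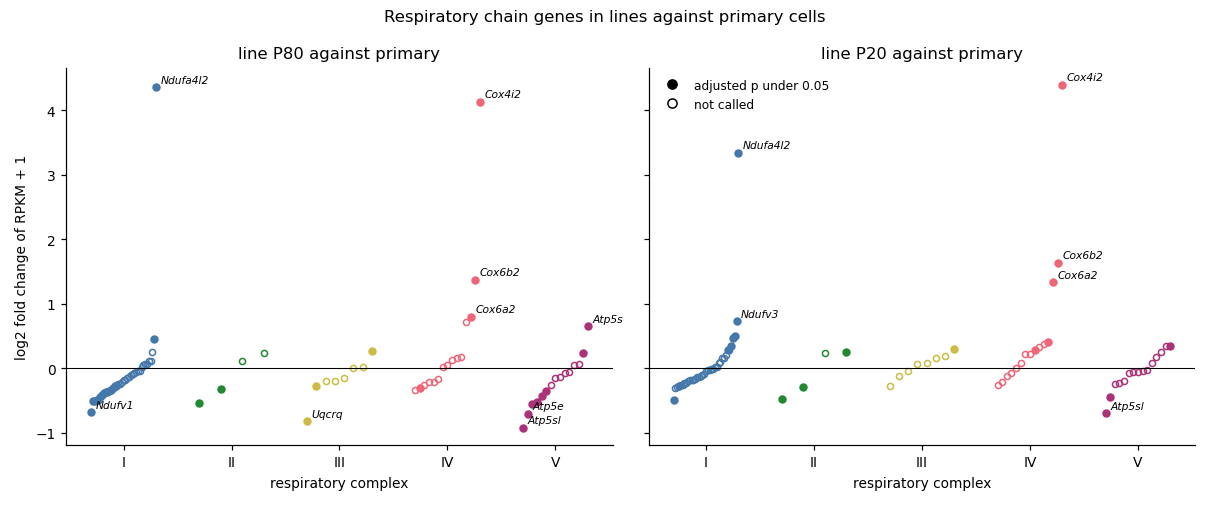
Log2 fold change of RPKM + 1 for the tested respiratory chain genes by complex, lines at P80 (left) and at P20 (right) against 8 primary libraries; filled dots passed an adjusted p of 0.05 and names mark the larger called changes. Cox4i2, Ndufa4l2 and Cox6b2 stand far above the other genes, most of which lie within 1 unit of 0.

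In complex I, 2 of 37 genes were higher and 15 lower at P80, and 6 higher and 2 lower at P20. This count and those of the complexes below are read beside all genes, of which 15.3% were higher and 24% lower at P80. At P20 it was 14.5% and 21.6%. Differences between complexes were not tested. Ndufv1, the subunit that binds NADH and flavin, had 101, 92.0, 96.5 and 98.8 RPKM in the lines of E11.5, of E13.5, of E16.5 and of P1 at P80 and 92.5, 113, 121 and 119 RPKM at P20, against 96.8 to 182 RPKM (median 155) in primary cells. It fell by 0.68 ± 0.11 (log2, adjusted p = 0.000324) at P80 and by 0.49 ± 0.11 (adjusted p = 0.00324) at P20. Ndufb7, an accessory subunit of the membrane arm, fell by 0.51 ± 0.12 (adjusted p = 0.00524) at P80. Ndufa10, another accessory subunit, fell by 0.27 ± 0.07 (adjusted p = 0.0108) at P20 and by 0.31 ± 0.07 (adjusted p = 0.00443) at P80.

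Ndufv3, the small accessory subunit of the flavoprotein part, moved the other way from Ndufv1. It had 318, 314, 299.5 and 258 RPKM in the 4 lines at P80 and 323, 383, 408 and 329 RPKM at P20, against 149.7 to 284 RPKM (median 209) in primary cells. Its log2 change was 0.45 ± 0.10 (adjusted p = 0.00414) at P80 and 0.73 ± 0.10 (adjusted p = 0.000148) at P20, the largest rise at P20 in complex I after Ndufa4l2. Ndufs7, which carries the iron-sulfur cluster that passes electrons to ubiquinone, rose by 0.50 ± 0.10 (adjusted p = 0.00154) and Ndufa8 by 0.48 ± 0.10 (adjusted p = 0.00233) at P20. Ndufa4 had 575 to 833 RPKM at P80 and 668 to 806 RPKM at P20, against 673 to 1027 RPKM in primary cells, and its log2 changes were -0.36 ± 0.10 (adjusted p = 0.0139) and -0.19 ± 0.10 (adjusted p = 0.171).

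The promoters of Ndufv3 and of Sdhb, described next, are shown as those of a gene that rose and a gene that fell at both passages. That of Ndufv3 (GRCm38.p6 chr17:31519865-31520164, plus strand) holds 1 match of ACGTG and that of Sdhb (chr4:140961021-140961320, plus strand) the NRF1 and the ETS core.
Ndufv3: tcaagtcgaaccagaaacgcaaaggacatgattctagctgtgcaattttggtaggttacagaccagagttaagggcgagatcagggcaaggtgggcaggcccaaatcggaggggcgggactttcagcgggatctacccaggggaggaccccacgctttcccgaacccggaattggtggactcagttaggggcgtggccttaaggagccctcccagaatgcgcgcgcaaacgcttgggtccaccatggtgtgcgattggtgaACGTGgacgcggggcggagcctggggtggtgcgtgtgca
Sdhb: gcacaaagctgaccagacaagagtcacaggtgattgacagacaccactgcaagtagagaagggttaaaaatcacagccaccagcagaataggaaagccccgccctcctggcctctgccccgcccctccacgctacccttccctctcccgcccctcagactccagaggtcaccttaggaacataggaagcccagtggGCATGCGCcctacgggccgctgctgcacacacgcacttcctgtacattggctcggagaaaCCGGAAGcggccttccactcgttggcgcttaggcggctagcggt

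The 4 genes of complex II did not move together. Sdhb, the iron-sulfur subunit (mm9 chr4:140517118-140535108, plus strand), had 181, 172, 193 and 173 RPKM in the lines of E11.5, of E13.5, of E16.5 and of P1 at P80 and 164, 180, 214 and 198 RPKM at P20, against 182 to 280.0 RPKM (median 262) in primary cells. It fell by 0.53 ± 0.08 (log2, adjusted p = 0.000346) at P80, where no line library overlapped the 8 primary libraries of the fit, and by 0.47 ± 0.08 (adjusted p = 0.000912) at P20. Sdha, the flavoprotein, had 91.7 to 108.4 RPKM at P80 and 95.5 to 106 RPKM at P20, against 100.8 to 153 RPKM in primary cells. Its log2 changes were -0.32 ± 0.08 (adjusted p = 0.00704) at P80 and -0.28 ± 0.08 (adjusted p = 0.0155) at P20.

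The 2 membrane anchors of complex II had positive changes. Sdhc had 181 to 210 RPKM at P80 and 201 to 243 RPKM at P20, against 134 to 202 RPKM in primary cells, and log2 changes of 0.12 ± 0.08 (adjusted p = 0.238) at P80 and 0.25 ± 0.08 (adjusted p = 0.0200) at P20. Sdhd had 205 to 223 RPKM at P80 and 197 to 235 RPKM at P20, against 147 to 239 RPKM in primary cells, with log2 changes of 0.24 ± 0.10 (adjusted p = 0.0646) and 0.25 ± 0.10 (adjusted p = 0.0646). All 4 subunits are present once in the assembled complex.

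In complex III, 1 of 8 genes was higher and 2 lower at P80, near the 15.3% and 24% of all genes. At P20, 1 was higher and 0 lower, where 14.5% and 21.6% of all genes were. Uqcrq, a small subunit of the ubiquinone-binding part, had 207, 204, 312 and 198 RPKM in the 4 lines at P80 and 238, 313, 427 and 369 RPKM at P20, against 265 to 504 RPKM (median 389) in primary cells. It fell by 0.82 ± 0.17 (log2, adjusted p = 0.00240) at P80 and had -0.28 at P20, which did not pass. The core protein Uqcrc1 fell by 0.28 ± 0.09 (adjusted p = 0.0286) at P80. Uqcrh rose by 0.26 ± 0.10 (adjusted p = 0.0448) at P80 and by 0.30 ± 0.10 (adjusted p = 0.0265) at P20. The Uqcrh call was lost at both passages after quantile scaling and against primary libraries of the same set. Calls of other genes that were lost under other processing are listed in the last section.

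Outside the isoforms, complex IV changed little. At P80, 3 of 15 tested genes were higher (Cox4i2, Cox6b2 and Cox6a2, the last of which entered the fit through line libraries alone) and 1 lower: Cox5b, a nuclear subunit on the matrix side, fell by 0.31 ± 0.10 (adjusted p = 0.0232). At P20, 5 were higher and 0 lower, with Cox8a at 0.42 ± 0.10 (adjusted p = 0.00449) and Cox7a2 at 0.28 ± 0.09 (adjusted p = 0.0245) added to the 3 isoforms. Cox8a had 638 to 774 RPKM at P80 and 709 to 1001 RPKM at P20, against 457 to 732 RPKM in primary cells, so the groups overlapped. Cox7a2l, which joins complexes III and IV into supercomplexes, had 169 to 225.5 RPKM at P80 and 180 to 252 RPKM at P20, against 98.7 to 277 RPKM in primary cells. Its log2 changes of 0.14 ± 0.14 (adjusted p = 0.453) and 0.34 ± 0.14 (adjusted p = 0.0759) did not pass, and nor did those of Cox6a1 (-0.34 ± 0.16, adjusted p = 0.106, and 0.08 ± 0.16, adjusted p = 0.717) and Cox7b (0.02 ± 0.13, adjusted p = 0.903, and 0.23 ± 0.13, adjusted p = 0.188) at P80 and P20.

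In complex V, 2 of 15 tested genes were higher and 6 lower at P80, and 1 higher and 2 lower at P20. The largest fall was that of Atp5sl, which despite its name is known as an assembly factor of the distal membrane arm of complex I. It had 26.2, 24.1, 27.7 and 27.4 RPKM in the 4 lines at P80 and 24.9, 31.2, 34.9 and 33.3 RPKM at P20, against 36.4 to 60.4 RPKM (median 50.6) in primary cells. No line library reached the primary range. It fell by 0.92 ± 0.12 (log2, adjusted p = 8.31e-05) at P80 and by 0.70 ± 0.12 (adjusted p = 0.000670) at P20.

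Atp5e, the epsilon subunit of the catalytic part, fell by 0.70 ± 0.12 (adjusted p = 0.000566) at P80 and by 0.44 ± 0.12 (adjusted p = 0.0116) at P20. Among the other central-stalk subunits, Atp5c1 (gamma) rose by 0.23 ± 0.08 (adjusted p = 0.0390) at P80 and Atp5d (delta) rose by 0.35 ± 0.10 (adjusted p = 0.0164) at P20. Atp5s, known as coupling factor B, had 7.53 to 12.2 RPKM at P80 and 5.63 to 12.1 RPKM at P20, against 3.79 to 11.6 RPKM in primary cells, and its log2 change was 0.65 ± 0.24 (adjusted p = 0.0444) at P80 and 0.34 ± 0.24 (adjusted p = 0.274) at P20. Atp5g1 had -0.55 ± 0.19 (adjusted p = 0.0346) at P80 and -0.20 ± 0.19 (adjusted p = 0.437) at P20 at its low level, and Atp5g3 had 0.06 ± 0.14 (adjusted p = 0.745) and 0.25 ± 0.14 (adjusted p = 0.182).

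P80 was then set against P20 to ask what further passaging does. No respiratory chain gene passed the test, and limma called 0 of the 13612 genes tested in either direction (0% and 0%). At an unadjusted p under 0.05 there were 13 of 79 respiratory chain genes and 819 of all genes. The differences nevertheless leaned one way: 71 of 79 were negative, with a median log2 difference of -0.18, beside -0.01 over all genes. In 6 genes all P80 libraries were below all P20 libraries and in 0 above, where 2.42% and 1.96% of all genes were. The median was -0.18 in complex I, -0.05 in complex II, -0.16 in complex III, and -0.20 in complexes IV and V. Within lines, the median difference was -0.04 for E11.5, -0.22 for E13.5, -0.17 for E16.5 and -0.26 for P1, with 49, 69, 61 and 69 of 79 genes lower at P80.

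The same lean was seen between the 2 libraries of primary cells of 1 age. Library 2, of the displaced set, was lower than library 1 in 49 of 79 genes at E11.5, 56 at E13.5, 58 at E16.5 and 63 at P1, with medians of -0.05, -0.06, -0.12 and -0.38. At E16.5 and P1, library 1 also had the higher tubule marker sum, at 765 and 6353 RPKM, against 171 and 513 RPKM. Set and cell content cannot be told apart there. A set term in the fit rests on these primary libraries, since each passage lies in 1 set. With set as a term in the fit, 38 of 79 differences between P80 and P20 were negative and the median was 0.01, and after quantile scaling 61 were negative with a median of -0.10. Short transcripts leaned the same way in these lines: genes whose longest transcript is under 1 kb had a median difference of -0.09 between P80 and P20 (721 genes), against 0.02 for those of 3 kb or more (6225 genes), and 48 of the 84 respiratory chain genes are under 1 kb. The part of set and of transcript length in the difference was not tested further.

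**Figure D4:**
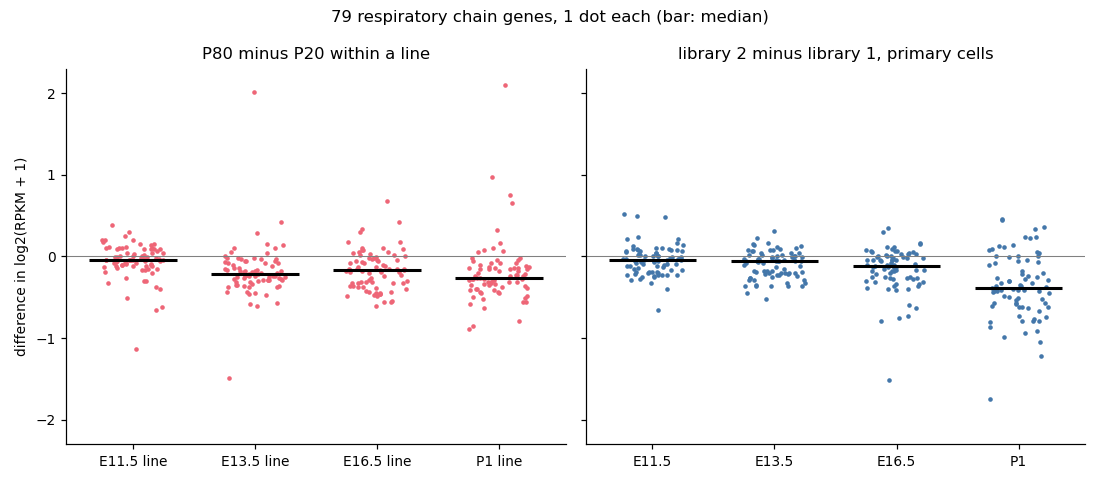
Difference in log2(RPKM + 1) for 79 respiratory chain genes, 1 dot per gene with the median as a bar: P80 minus P20 within each line (left) and library 2 minus library 1 of primary cells at each age (right). All 8 medians lie below 0.

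Ages of primary NPCs were compared because progenitors are used up as the kidney forms. At P1 against E11.5, 5 of 78 respiratory chain genes were higher and 0 lower, where 17.5% and 17.7% of all genes were higher and lower. The 5 were Ndufa4l2, Cox7a1, Cox4i2, Atp5s and Cox7a2l, so 3 of the 5 are isoform genes described above. The sum of all 84 genes was 26537 and 25334 RPKM at E11.5, 19520 and 20518 RPKM at E12.5, 25874 and 23828 RPKM at E13.5, 29255 and 26735 RPKM at E16.5 and 28827 and 22619 RPKM at P1, so the 2 libraries of P1 lay on both sides of those of E11.5. The median log2 change was -0.02, beside 0.04 over all genes. It was -0.17 without P1 library 1, 0.18 without P1 library 2 and 0.14 after quantile scaling, where the median of all genes was -0.11.

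The libraries of P1 and E11.5 did not overlap in 18 genes that were higher and 17 lower at P1, where 37.9% and 33.6% of all genes did not.

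Ndufa4l2 had 0.405 and 0.338 RPKM at E11.5, 0.551 and 0.402 RPKM at E12.5, 0.410 and 0.200 RPKM at E13.5, 8.23 and 2.23 RPKM at E16.5 and 16.03 and 13.0 RPKM at P1. The 6 libraries up to E13.5 did not differ beyond their spread, and both later ages lay above all of them. Its log2 change was 3.49 ± 0.40 (adjusted p = 0.00108) for P1 against E11.5, 1.99 ± 0.40 (adjusted p = 0.0497) for E16.5 against E11.5 and 1.499 ± 0.40 (adjusted p = 0.0587) for P1 against E16.5. The call at E16.5 was lost without filtering, after quantile scaling and when either E11.5 library or E16.5 library 1 was left out.

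Cox4i2 had 3.37 and 2.84 RPKM at E11.5, 3.42 and 3.495 RPKM at E12.5, 3.56 and 4.64 RPKM at E13.5, 9.37 and 5.72 RPKM at E16.5 and 6.64 and 9.52 RPKM at P1. It was higher at P1 than at E11.5 by 1.13 ± 0.32 (adjusted p = 0.0255), and the call was lost after quantile scaling (0.73, adjusted p = 0.133). Cox7a1 had 26.9 and 7.30 RPKM at P1, against 2.83 and 4.41 RPKM at E11.5, a change of 1.74 ± 0.49 (adjusted p = 0.0265) that was 0.87 (adjusted p = 0.109) without P1 library 1. Without either E11.5 library neither Cox4i2 nor Cox7a1 passed, and without P1 library 2 Cox4i2 did not. Cox7a2l had 216 and 277 RPKM at P1, against 136 and 137 RPKM at E11.5 (0.83 ± 0.18, adjusted p = 0.0100). Atp5s had 11.6 and 7.31 RPKM at P1, against 4.19 and 5.002 RPKM at E11.5 (0.88 ± 0.20, adjusted p = 0.0127). Cox6b2 had 105 and 144 RPKM at P1, against 85.9 and 54.2 RPKM at E11.5, and did not pass (0.85 ± 0.31, adjusted p = 0.0619). Without P1 library 2, 20 respiratory chain genes were higher at P1 than at E11.5, where 3209 of all 13457 genes tested were. Without E11.5 library 1 it was 1, where 744 of all 13550 were.

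Markers of other cells moved with these ages. Of 14 tubule markers tested, 13 were higher at P1 than at E11.5 with a median log2 change of 4.68, and the sum of the list was 6353 and 513 RPKM at P1, against 4.04 and 5.40 RPKM at E11.5. Of 9 stromal markers 5 were higher and 1 lower, with sums of 258 and 213 RPKM, against 76.9 and 105 RPKM. All 9 ureteric bud markers were above E11.5 in both P1 libraries and 3 passed the test, with sums of 337 and 81.3 RPKM at P1, against 14.3 and 20.6 RPKM at E11.5. All 7 macrophage markers were above E11.5 in both P1 libraries and 0 passed, with sums of 778 and 88.6 RPKM, against 51.4 and 37.4 RPKM. Pdgfrb was at 14.1 RPKM in both P1 libraries, against 1.37 and 2.05 RPKM at E11.5. The part of these cells in the rise of Ndufa4l2, Cox4i2 and Cox7a1 was not tested.

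Between the other ages few genes passed. At E16.5 against E11.5, 1 of 78 genes was higher (Ndufa4l2) and 0 lower, where 1.27% and 0.457% of all genes were. Of the 78 differences 71 were positive, with a median of 0.13, beside 0.03 over all genes. The median was 0.07 with 23 negative without E16.5 library 1, and 0.06 with 22 negative after median ratio scaling. The libraries did not overlap in 34 genes upward and 0 downward, where 30.3% and 23.3% of all genes did not. At P1 against E16.5, 0 were higher and 0 lower by limma, where 2.73% and 3.74% of all genes were; 6 of the 78 and 3933 of all genes had an unadjusted p under 0.05. The libraries did not overlap in 6 genes upward and 25 downward, where 21.7% and 28.4% of all genes did not. Without P1 library 2, 5 were higher, where 1600 of all 13457 genes tested were.

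Six2-negative cells of the E12.5 kidney were compared with E12.5 NPCs. No respiratory chain gene passed in limma (0 of 78, where 9.28% of all genes were higher and 4.32% lower), and 3 of the 78 and 3720 of all genes had an unadjusted p under 0.05. The median log2 difference was -0.10, with 57 of 78 negative, beside 0.02 over all genes, but it was 0.07 with 29 negative without Six2-negative library 1 and -0.27 with 65 negative without library 2, so its direction rests on 1 library. Cox4i2 had 5.76 and 11.4 RPKM in Six2-negative cells, against 3.42 and 3.495 RPKM in E12.5 NPCs (1.04 ± 0.32, adjusted p = 0.0638). Ndufa4l2 had 2.24 and 2.14 RPKM, against 0.551 and 0.402 RPKM (1.11 ± 0.40, adjusted p = 0.109). Neither pair of groups overlapped. This held for 7 respiratory chain genes upward and 16 downward, where it did for 33.5% and 26.6% of all genes.

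Markers of some other cell types were higher in the Six2-negative libraries. All 8 erythroid markers were higher, and their sum was 6282 and 16580 RPKM in Six2-negative cells, against 95.6 and 59.1 RPKM in E12.5 NPCs. All 9 stromal markers were higher, with sums of 714 and 921.5 RPKM, against 156 and 124 RPKM. Of 9 ureteric bud markers 4 were higher and 0 lower. None of the 8 endothelial and 14 tubule markers tested passed. All 7 macrophage markers had negative changes and 0 passed, with sums of 28.6 and 28.95 RPKM, against 108 and 36.8 RPKM. The sum of the 84 respiratory chain genes was 16333 and 20593 RPKM in Six2-negative cells, against 19520 and 20518 RPKM in E12.5 NPCs. Only Six2-negative library 1 lay below the E12.5 NPCs. RPKM are shares of a library, and the part of the globin transcripts in these sums was not tested.

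In the withdrawal series each condition was 1 library, so conditions were compared without a test, and no culture in full medium is among these 9. They are labelled total RNA and the other 20 libraries polyA RNA, so levels are compared within the 9. BMP7, CHIR and LIF withdrawal were set against the mean of heparin and Y27632 withdrawal of the same day, and a log2 difference of at least 1 was counted. Again the isoforms stood out. After 4 days without BMP7, 3 of 79 genes were past the limit downward (Ndufa4l2, Cox4i2 and Cox7a1) and 0 upward, where 6.93% and 7.26% of the 12189 genes were. After 8 days without BMP7 it was 3 downward (Cox4i2, Cox6b2 and Ndufa4l2) and 0 upward, where 4.96% and 6.56% of all genes were.

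Cox4i2 stood at 6.86 RPKM without BMP7 at day 4, against 148 and 202 RPKM without heparin and Y27632, and at 37.1 RPKM without BMP7 at day 8, against 146 and 163 RPKM. Without CHIR it stood at 142 RPKM at day 4 and 23.9 RPKM at day 8, and without LIF at 183 RPKM at day 8. The value without BMP7 at day 4 was within the range of primary cells, whose libraries carry another RNA label, so the levels are not strictly comparable. The differences were -4.47 and -2.03 without BMP7 at days 4 and 8, -0.29 and -2.64 without CHIR, and 0.25 without LIF. Cox4i1 lay between 1113 and 1632 RPKM in all 9 libraries.

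Ndufa4l2 stood at 1.41 RPKM without BMP7 at day 4, against 104 and 100.4 RPKM without heparin and Y27632, and at 42.7 RPKM without BMP7 at day 8, against 99.5 and 85.6 RPKM. Without CHIR it stood at 124 RPKM at day 4 and 2.63 RPKM at day 8, and without LIF at 158 RPKM at day 8. The differences were -5.42 and -1.10 without BMP7, 0.27 and -4.68 without CHIR and 0.77 without LIF. Cox4i2 and Ndufa4l2 were thus both low in BMP7 withdrawal at day 4 and in CHIR withdrawal at day 8. In LIF withdrawal Ndufa4l2 was above all 4 heparin and Y27632 libraries and the highest of the withdrawal libraries.

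Markers of other cells moved in the same libraries. The 5 podocyte markers summed to 139 and 89.2 RPKM without BMP7 at days 4 and 8 and 57.6 and 122 RPKM without CHIR. Without LIF the sum was 46.1 RPKM, against 21.6 to 28.3 RPKM without heparin or Y27632. The sum was thus highest in the 2 libraries where Cox4i2 and Ndufa4l2 were lowest. Only 2 of the 5 passed the filter. Their log2 differences were 0.18 and 2.897 without BMP7 at day 4, and 1.497 and 2.383 without CHIR at day 8. The 12 cap mesenchyme markers summed to 499.9 and 424 RPKM without BMP7 and 902.5 and 395 RPKM without CHIR. Without LIF the sum was 525 RPKM, against 637 to 734.5 RPKM without heparin or Y27632. These sums hold opposite moves. Without BMP7 at day 4, 4 of the 12 had positive and 8 negative log2 differences, from -3.73 to 4.076. Without CHIR at day 8, 3 were higher and 5 lower by at least 1. The 9 stromal markers summed to 284 and 359 RPKM without BMP7, 202 and 201 RPKM without CHIR and 122 RPKM without LIF, against 61.2 to 89.5 RPKM. They did not all move together. Of the 8 past the filter, 5 were above and 3 below the heparin and Y27632 mean without BMP7 at day 4, and 7 and 1 at day 8. Col1a1 stood at 1.37 and 1.83 RPKM without BMP7, against 7.64 to 16.4 RPKM without heparin or Y27632. Pdgfrb stood at 49.2 and 38.7 RPKM without BMP7, 90.5 and 107.9 RPKM without CHIR and 40.2 RPKM without LIF. Its values without heparin or Y27632 were 14.1 to 26.6 RPKM. The 8 endothelial markers, of which 2 passed the filter, summed to 194 and 242 RPKM without CHIR and 295 RPKM without LIF. Without BMP7 their sums were 52.1 and 86.2 RPKM, against 48.4 to 65.4 RPKM without heparin or Y27632. The part of these cells in the levels of Cox4i2 and Ndufa4l2 was not tested.

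Cox6b2 stood at 91.4 RPKM without BMP7 at day 4 and 67.2 RPKM at day 8, against 164, 182, 173 and 148 RPKM in the 4 heparin and Y27632 libraries, differences of -0.91 and -1.24. Without CHIR it stood at 168 and 129 RPKM at days 4 and 8 and without LIF at 171 RPKM. Cox7a1 stood at 12.2 and 23.1 RPKM without BMP7 at days 4 and 8, at 41.1 and 8.81 RPKM without CHIR and at 14.4 RPKM without LIF, against 20.9 to 34.7 RPKM without heparin or Y27632.

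**Figure D5:**
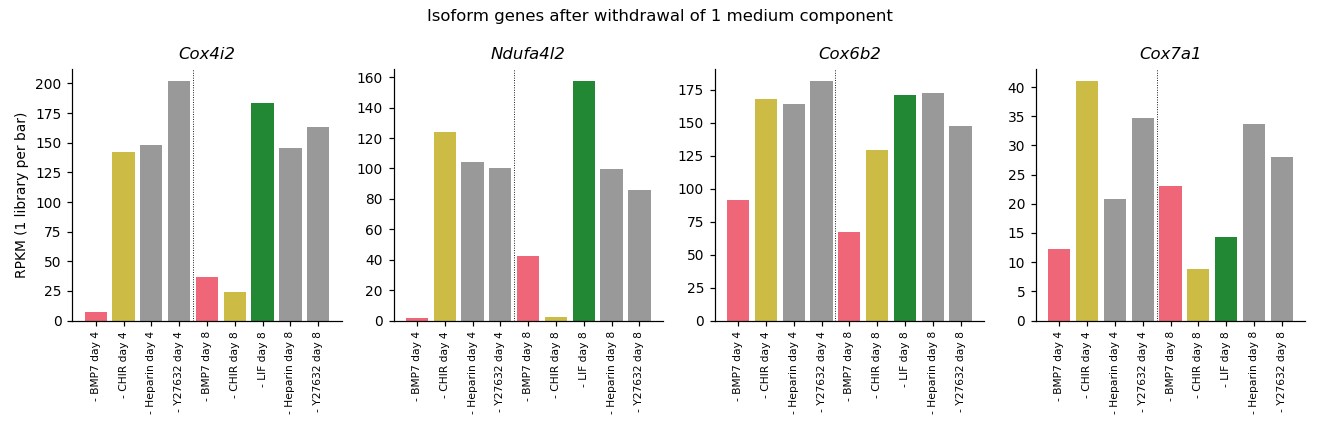
RPKM of Cox4i2, Ndufa4l2, Cox6b2 and Cox7a1 in the 9 withdrawal libraries, 1 bar per library, with day 4 left and day 8 right of the dotted line and the heparin and Y27632 withdrawals in grey. Cox4i2 and Ndufa4l2 are lowest without BMP7 at day 4, at 6.86 and 1.41 RPKM, and low without CHIR at day 8.

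After CHIR withdrawal 1 gene was past the limit upward at day 4 and 0 downward, where 2.56% and 1.57% of all genes were. It was Cox7c, chosen for mention after its values were seen, at 2.68 RPKM. Cox7c passed the filter on low values only with BMP7, CHIR and LIF libraries counted. At day 8, 0 were upward and 3 downward (Ndufa4l2, Cox4i2 and Cox7a1), where 8.2% and 4.86% of all genes were. Without LIF at day 8, 0 were upward and 1 downward (Cox7a1, -1.05), where 5.22% and 4.02% were. Over the 79 genes the median was -0.05 without BMP7 at day 4 and -0.16 at day 8, -0.18 and -0.29 without CHIR at days 4 and 8, and -0.16 without LIF, beside medians over all genes of -0.04 to -0.01.

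In 23 of the 79 genes (29.1%) all 5 libraries without BMP7, CHIR or LIF were below all 4 heparin and Y27632 libraries, and in 2 all were above, where 11.2% and 9.14% of all genes were. The 23 include Cox6a2, which passed the filter on low values through the heparin libraries alone (1.19 and 1.15 RPKM) and was listed at 0 in the 5. The 2 include Cox7c, which passed the filter only with libraries of the 5 counted. Neither is read as a result. The 23 also include ubiquitous subunits of each complex, and those named here were chosen after their values were seen. Ndufs7 stood at 139 to 195 RPKM in the 5, against 242 to 285 RPKM in the 4, and the complex III subunit Uqcrfs1, the Rieske protein, at 146 to 157 RPKM, against 194 to 204 RPKM. Atp5b, the catalytic beta subunit of ATP synthase, stood at 835 to 954 RPKM, against 1202 to 1367 RPKM. In complex II the membrane anchors were among the 23. Sdhd stood at 146 and 149 RPKM without BMP7, 148 and 119 RPKM without CHIR at days 4 and 8 and 128 RPKM without LIF, against 188 to 210.4 RPKM in the 4 heparin and Y27632 libraries. The 5 values do not overlap the 4. Its differences were -0.43, -0.49, -0.41, -0.82 and -0.71. Sdhc stood at 162 to 187 RPKM in the 5, against 188 to 219 RPKM in the 4. Sdha, at 71.9 to 81.9 RPKM against 79.5 to 91.5 RPKM, and Sdhb, at 179 to 209 RPKM against 199.9 to 224 RPKM, overlapped between the 5 and the 4.

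Lists around the respiratory chain give the setting. In glycolysis and lactate formation, 14 of 16 tested genes were higher at P80 and 14 of 16 at P20, with median log2 changes of 1.74 and 1.91, the largest in the glucose transporter Slc2a3 (5.54 ± 0.34, adjusted p = 1.98e-07, at P80). Ldha, lactate dehydrogenase A, had 1476 to 1753 RPKM at P80 and 1630.0 to 2030.0 RPKM at P20, against 334.9 to 643 RPKM in primary cells. Among 12 genes of pyruvate entry into mitochondria, 1 rose and 3 fell at P80 and 1 rose and 4 fell at P20. The riser was Pdk1, a kinase that shuts pyruvate dehydrogenase and a known low-oxygen gene, by 2.15 ± 0.20 (adjusted p = 5.44e-06) at P80 and 2.00 ± 0.20 (adjusted p = 9.23e-06) at P20. Pdk2 fell by 2.08 ± 0.17 (adjusted p = 1.73e-06) at P80 and by 2.20 ± 0.17 (adjusted p = 1.12e-06) at P20. Glycolysis genes were low in the same withdrawal libraries as Cox4i2 and Ndufa4l2: 13 of 16 were lower by at least 1 without BMP7 at day 4 and 13 of 16 without CHIR at day 8, against 6, 1 and 5 of 16 without BMP7 at day 8, CHIR at day 4 and LIF at day 8.

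Counts for the mitochondrial lists are read beside those of all genes, of which 15.3% were higher and 24% lower at P80 and 14.5% higher and 21.6% lower at P20, and differences between lists were not tested. Of 14 TCA cycle genes, 0 were higher and 3 lower at P80 and 1 was higher and 1 lower at P20; Ogdh, the E1 subunit of the oxoglutarate dehydrogenase complex, fell by 0.47 ± 0.09 (adjusted p = 0.00187) at P80 and by 0.42 ± 0.09 (adjusted p = 0.00404) at P20. Of 41 assembly factors, 3 were higher and 10 lower at P80 and 4 higher and 9 lower at P20. Sdhaf1, which delivers iron-sulfur clusters to Sdhb, fell by 0.68 ± 0.11 (adjusted p = 0.000562) at P80 and by 0.88 ± 0.11 (adjusted p = 7.30e-05) at P20. The copper chaperone of complex IV Cox17 rose by 0.59 ± 0.11 (adjusted p = 0.00107) at P80 and by 0.67 ± 0.11 (adjusted p = 0.000435) at P20. Of 10 electron carriers and other inputs 0 were higher and 4 lower at P80 and 0 and 3 at P20, with Etfdh, which feeds electrons from fatty acid oxidation to ubiquinone, falling by 0.82 ± 0.12 (adjusted p = 0.000227) at P80 and by 0.87 ± 0.12 (adjusted p = 0.000132) at P20.

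Among 15 regulators of mitochondrial biogenesis 2 were higher and 2 lower at P80 and 2 higher and 3 lower at P20, with the nuclear receptor Esrra rising by 0.45 ± 0.13 (adjusted p = 0.0147) at P80 and by 0.70 ± 0.13 (adjusted p = 0.00103) at P20. Of 77 mitochondrial ribosomal protein genes 3 were higher and 22 lower at P80 and 6 higher and 11 lower at P20. In primary cells the counts of this list and of the respiratory chain genes differed. At P1 against E11.5, 0 of the 77 ribosomal protein genes were higher and 38 lower (median -0.46). Of 41 assembly factors 2 were higher and 12 lower (median -0.27), and of the 78 respiratory chain genes 5 were higher and 0 lower. Over all genes tested 17.5% were higher and 17.7% lower. The difference between these lists was not tested.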

How the data were processed

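The authors deposited RPKM values by gene symbol for 29 libraries. Reads of 20 libraries, labelled polyA RNA, were handled with STAR and Cufflinks on mm9, per the submitters' processing notes; for versions, and for the 9 withdrawal libraries (labelled total RNA), the steps were not given in the sources used here. Of 23947 lines, 2 with displaced values and 27 whose symbols had turned into dates were left out. Depth is not stated; it was estimated from the steps between low values, and since only 40.7 to 50.9% of low values came within 0.1 of a whole read, no count test was run.

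Values were set to log2(RPKM + 1) and tested by limma (version 3.58.1, R version 4.3.3, trend option), over genes with at least 1 RPKM in at least 2 libraries of the fit, and Benjamini-Hochberg adjustment over all of them, with a threshold of 0.05. Lines were fitted with 8 primary libraries and an age term (16 libraries, 13612 genes), and primary ages with Six2-negative cells (12 libraries, 13574 genes). The fits were tested on simulated data. The members and gene lists were chosen with earlier results of these data known. Genes are named by largest change per complex and comparison, with isoform pairs and the 4 genes of complex II throughout. Alternatives were another pseudocount, no filter, 2 scalings, set as a term, same-set libraries, a replicate block and leaving out each library. Positions are from GENCODE M1 (mm9), and 16 of the 84 genes overlap another coding gene.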

Additional observations from a re-analysis of the deposited data

Results flagged for a closer look

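Among 32 genes, 64 groups of 4 line libraries were examined for a library far from the others, and 4 stood out by Dixon's criterion, where chance flags about 1 in 20 groups. In the E16.5 line at P80, Uqcrq was high at 311.8 RPKM and Cox7a2l at 225.5 RPKM. In the E16.5 line at P20, Sdhc was high at 243.4 RPKM. In the E11.5 line at P80, Uqcrc1 was high at 211.6 RPKM.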

How the results depend on the processing

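For lines at P20 against primary cells, 9 genes were higher and 13 lower after quantile scaling, 8 and 11 with set as a term, and 2 and 0 against same-set libraries. Over all genes it was 2236 and 2174, 1562 and 2451, and 622 and 640. Leaving out 1 library gave 8 (without the E16.5 line) to 21 (without P1 library 1) higher, where 1587 and 2262 of all genes were. At P80, 13 genes were higher and 14 lower after median ratio scaling, 5 and 14 with set as a term, and 8 and 10 against same-set libraries. Over all genes it was 2623 and 2616, 1680 and 2532, and 1769 and 2493. Leaving out 1 library gave 4 (without E11.5 library 1) to 13 (without P1 library 1) higher, where 1854 and 2538 of all genes were. It gave 16 (without the E13.5 line) to 31 (without P1 library 2) lower, where 2348 and 3063 were. The cause was not tested. Leaving out 1 library gave 1 to 20 higher and 0 to 1 lower for P1 against E11.5, 0 to 1 higher for E16.5 against E11.5, 0 to 5 for P1 against E16.5, and 0 to 1 for Six2-negative cells. Over all genes, 744 to 3209 were higher for P1 against E11.5 and 13 to 1053 for E16.5 against E11.5. It was 68 to 1600 for P1 against E16.5 and 210 to 861 for Six2-negative cells. For E16.5 against E11.5, 0 were higher without a filter and after quantile scaling. For P1 against E16.5, 1 was higher after quantile scaling and with set as a term. For Six2-negative cells, 1 was higher with a pseudocount of 0.1 and 1 lower after median ratio scaling. In withdrawal, a pseudocount of 0.1 gave 1 upward without BMP7 at day 4 and at day 8, 1 downward without CHIR at day 4, and 2 downward without LIF.

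Calls of single genes in lines were lost under some of these alternatives. Against primary cells at P80 this held for Atp5c1, Atp5g1, Atp5s, Cox5b, Ndufa4, Sdha, Uqcrc1 and Uqcrh. At P20 only Cox4i2 and Cox6b2 kept the call against primary libraries of the same set. Single genes that did not pass also changed sign. Cox6b2 between P80 and P20 was 0.0596 with set as a term. Leaving out 1 library, Cox7a1 ran from -0.14 to 0.88 at P20 against primary cells and from -0.16 to 0.86 at P80 against P20. For P1 against E16.5, Cox4i2 was -0.0613 after quantile scaling and ran from -0.21 to 0.42, Cox6b2 from -0.0407 to 0.75 and Cox7a1 from -0.59 to 1.16. In Six2-negative cells Cox7a1 was -0.015 after quantile scaling. Replicate numbers were not used as pairs: the labels do not say what they share, and over 15 pairs of groups the correlation of deviations ran from -0.109 to 0.374 and passed 0.1 in 7. In groups other than E12.5 the number coincides with set. With a replicate block, 5 genes were higher for P1 against E11.5 and 1 for E16.5 against E11.5, as without it. Over 901 alternative values of single genes, 753 kept direction and call, 130 lost the call, 7 gained it and 11 changed sign.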
